A study of Mus musculus with 21 samples.

Results

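The comparison is between mouse embryonic stem cells (mESCs) without PDS5A and wild type (WT) mESCs, both transfected with siGLO, the transfection control of the study. Its members are the 3 Pds5a-KO siGLO and 3 WT siGLO libraries, 6 of the 21 RNA-seq libraries of the series, chosen by the genotype and siRNA in their labels. The question was which genes and gene families are expressed at a higher or lower level once PDS5A is lost. All cells were of the male line v6.5, grown in serum medium on gelatin, and were collected 48 h after transfection with 50 nM siRNA. The other groups used here were WT siPds5b and Pds5a-KO siPds5b mESCs, in which *Pds5b* was knocked down, and Pds5b-KO siGLO mESCs. Pds5a-KO siStag1 and Pds5a-KO siStag2 mESCs, in which *Stag1* or *Stag2* was knocked down, were used in the fit of all 21 libraries. Their values also enter the description of a region of chromosome 15. The knockout libraries are replicates of a single CRISPR clone, so an effect of the clone and an effect of the gene cannot be told apart. The p-values below cover only the spread between cultures within a condition, not that between clones. This spread was estimated from all 21 libraries of the 7 conditions together, not from the 6 libraries alone.

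Cohesin is a ring of SMC1A, SMC3 and RAD21, joined by STAG1 or STAG2, which extrudes loops of chromatin and holds sister chromatids together. PDS5A and its paralog PDS5B bind the ring, where they take part in its release from chromatin by WAPL, in acetylation of SMC3, and in stopping loops at sites of CTCF. In mESCs, cohesin occupies enhancers and promoters of the genes that define the pluripotent state.

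The knockout was made with a pair of Cas9 guides in *Pds5a*, on chromosome 5 (mm10, minus strand). The guides are shown because the whole comparison rests on this lesion, with the protospacer adjacent motif in capitals:
Pds5a sgRNA 1: acgtttgatcatttcatcggTGG
Pds5a sgRNA 2: ccgcactcacgacgccacagAGG
Guide 1 matches chr5:65696769-65696788 and guide 2 matches chr5:65696843-65696862, both on the plus strand and in coding sequence of exon 2 of 32 of the transcript Pds5a-201. The exon stretch that holds them, chr5:65696763-65696882 on the gene's strand, is given with both guide sites in capitals and has 74 bases between the predicted cut sites:
Pds5a exon stretch: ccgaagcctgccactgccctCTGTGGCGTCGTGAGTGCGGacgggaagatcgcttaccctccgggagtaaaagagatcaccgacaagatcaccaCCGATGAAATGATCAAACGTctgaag
*Pds5a* had 5256, 4719.9 and 5199.7 normalized counts in the 3 WT siGLO libraries and 4786, 3788 and 4239 in the Pds5a-KO siGLO libraries. The groups overlapped by 1 library, and the log2 fold change was -0.24 ± 0.09 (SE), with an adjusted p of 0.0415 that missed the threshold of 0.01, which was passed without Pds5a-KO siGLO replicate 1 (-0.34). Counts cover the whole transcript, so they check the genotype labels of a lesion in exon 2 only weakly. The distance between predicted cut sites is not the lesion itself. For this clone the paper reports an insertion with a deletion on an allele and a longer deletion, reaching into the next intron, on the other. It found PDS5A protein undetectable in its *Pds5a* knockout mESCs. *Pds5b* had a log2 fold change of 0.09 ± 0.11 and an adjusted p of 0.582.

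Depth ranged from 17539639 to 23989198 counts in the WT siGLO libraries and from 20009068 to 21360847 in the Pds5a-KO siGLO libraries. Values below are normalized counts, scaled to a library of 19816922 counts. Replicate 1 stood apart in both groups: the chi-square per gene between replicates was 20.5 and 23.1 for pairs with replicate 1 and 8.5 for the other pair in Pds5a-KO siGLO mESCs, and 13.1 and 11.9 against 4.77 in WT siGLO mESCs. The summed level of 10 defining mESC markers (*Pou5f1*, *Sox2*, *Nanog* and others) was 151676 to 161646 in WT siGLO and 126012 to 142864 in Pds5a-KO siGLO libraries, with none at 0. That of 9 trophoblast markers was 235 to 249.7 in WT siGLO and 1154 to 2404 in Pds5a-KO siGLO libraries, with all 6 tested ones higher and *Tpbpa* and *Prl3d1*, which mark mature trophoblast, at 0 in each of the 6 libraries. The 15 marker genes of feeder fibroblasts summed to 2091 to 2802 and 1071 to 2759. In bulk RNA, a change in every cell and a change in the number of cells of one type cannot be told apart.

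Loss of PDS5A went with changed expression of 2656 genes, or 17.8% of the 14963 tested, at an adjusted p under 0.01 in edgeR's quasi-likelihood test (differentially expressed genes, DEGs). Of these, 1441 were higher in Pds5a-KO siGLO mESCs (9.63% of tested genes) and 1215 were lower (8.12%). In 2637 of the DEGs the libraries of the genotypes did not overlap, as was so for 40.8% of all tested genes. Most changes were modest. DEGs moved by 0.73 on the log2 scale in the median, regardless of direction, and 600 DEGs rose and 358 fell by at least 1. Without replicate 1 of both genotypes, 1105 DEGs were higher and 871 lower. Single libraries moved the counts by more, with 1763 DEGs, 784 of them lower, without Pds5a-KO siGLO replicate 2 and 936 higher without WT siGLO replicate 3. Of the DEGs in lists of trophoblast and epithelial genes most were higher, and of those in lists of the two-cell-like and the naive pluripotent state most were lower. A gene in more than 1 of the 83 lists with a tested gene is counted in each.

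**Figure D1:**
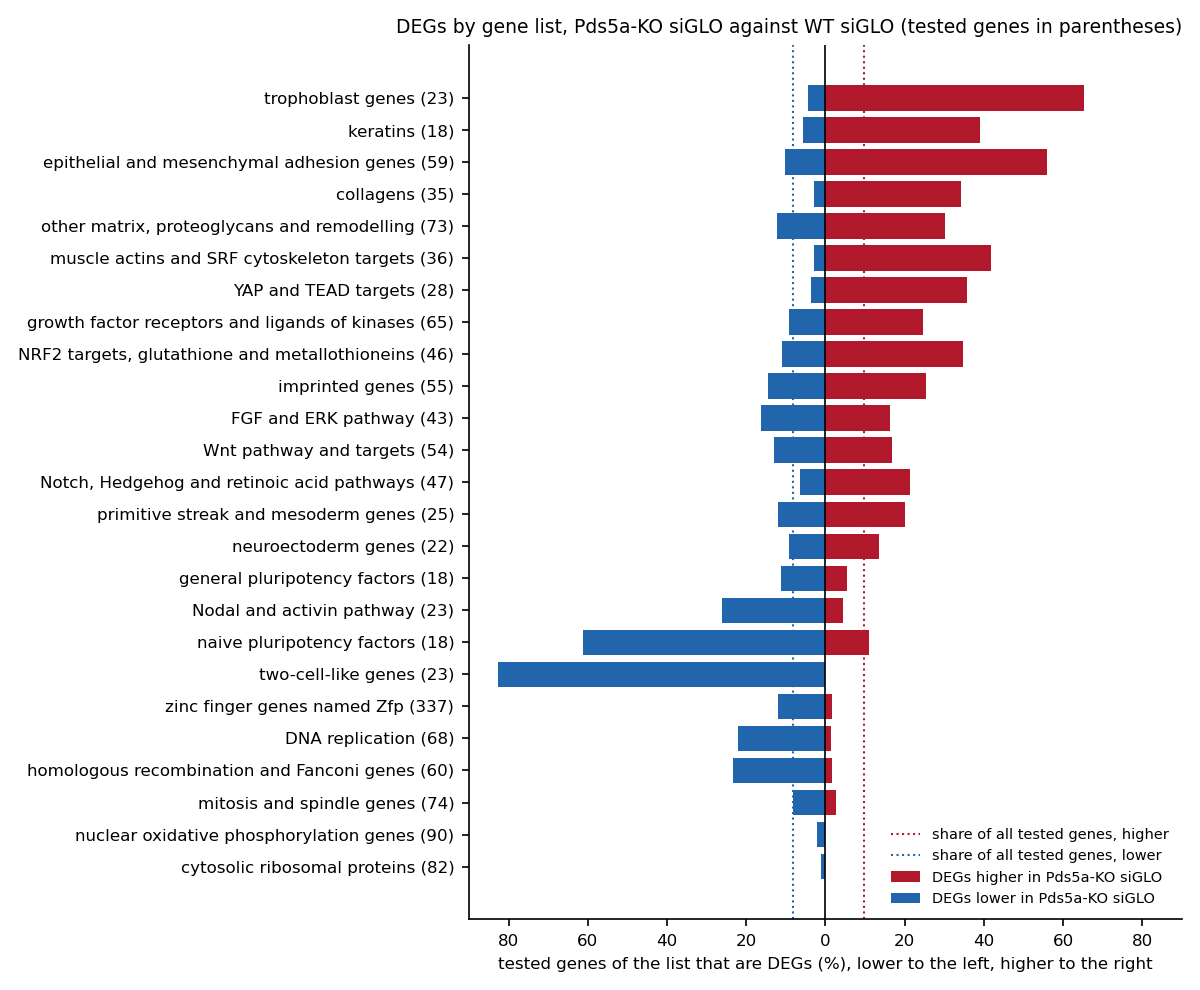
Share of the tested genes of 25 gene lists that were DEGs, higher to the right in red and lower to the left in blue, with the shares over all tested genes (9.63% higher, 8.12% lower) as dotted lines. Trophoblast, keratin and epithelial adhesion genes lie far to the right, two-cell-like and naive pluripotency genes far to the left, and ribosomal protein genes near 0.

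Genes of the trophoblast lineage, the outer cell layer of the blastocyst that forms the placenta, were mostly higher. Of 23 tested genes of this list, 15 rose and 1 fell, and their median log2 fold change was 1.79, against 0.002 over all tested genes. The share of 65.2% higher genes was the highest among the lists. *Hand1*, a transcription factor of trophoblast giant cells, had 24.9, 28.2 and 33.1 normalized counts in the WT siGLO libraries and 256, 334 and 387 in the Pds5a-KO siGLO libraries. The lowest knockout library was far above the highest WT library, and the log2 fold change was 3.50 ± 0.23 (adjusted p 2.22e-10). The placental homeobox genes *Rhox6* and *Rhox9* of the X chromosome rose by 3.43 ± 0.22 and 2.98 ± 0.22 on the log2 scale, and their 6 libraries likewise fell into separate ranges. *Gata3*, a trophoblast transcription factor, went from 27.5, 14.6 and 38 to 63, 105 and 117, with a log2 fold change of 1.79 ± 0.37 (adjusted p 0.00104). *Eomes*, a factor of trophoblast stem cells and of the primitive streak, was the member that fell, from 345, 579 and 579.7 to 174, 237 and 221 (-1.25 ± 0.23, adjusted p 0.000507). *Cdx2*, *Esx1* and *Igf2*, singled out after their values were seen, had log2 fold changes of 1.90 ± 0.49, 2.91 ± 0.39 and 2.64 ± 0.39, all past the threshold, the first not so without any 1 library other than Pds5a-KO siGLO replicate 1. *Igf2* is not a member of the trophoblast list but of the list of imprinted genes. *Cdx2*, which specifies trophectoderm, stayed low at 30.5, 38.3 and 42.4 in the Pds5a-KO siGLO libraries. Over all alternative fits, between 12 and 18 genes of the list were higher and 1 was lower.

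Keratins, the intermediate filament proteins of epithelia, were also more often higher than lower. Their list is not independent of the trophoblast list, of which *Krt7*, *Krt8* and *Krt18* are members as well. Of 18 keratins tested, 7 rose and 1 fell, with a median of 1.87. *Krt7* (mm10 chromosome 15, 101411043 to 101430313) had 98.8, 72.1 and 68.6 normalized counts in the WT siGLO libraries and 639, 1601 and 1602 in the Pds5a-KO siGLO libraries. All 3 knockout libraries were above WT, with replicate 1 well below the other two, and the log2 fold change was 4.0 ± 0.49 (adjusted p 3.08e-05). *Krt20* rose by 3.44 ± 0.38. *Krt8* and *Krt18*, the simple epithelial keratin pair, were singled out after their values were seen. *Krt8* went from 1762, 1654 and 1734 to 6091, 18271 and 17867 and *Krt18* from 1139, 1118 and 1162 to 5303, 14671 and 14012. Here too replicate 1 was lowest in the knockout while the groups did not overlap, and the log2 fold changes were 3.04 ± 0.48 and 3.31 ± 0.47 (adjusted p 0.000273 and 0.000112). *Krt42* was the keratin that fell, by 0.59 ± 0.14 on the log2 scale, and its call was lost without Pds5a-KO siGLO replicate 3. In a fit of only the 6 libraries 4 keratins were higher, and *Krt8* was not called, and without a filter on low counts the median was 0.01.

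**Figure D2:**
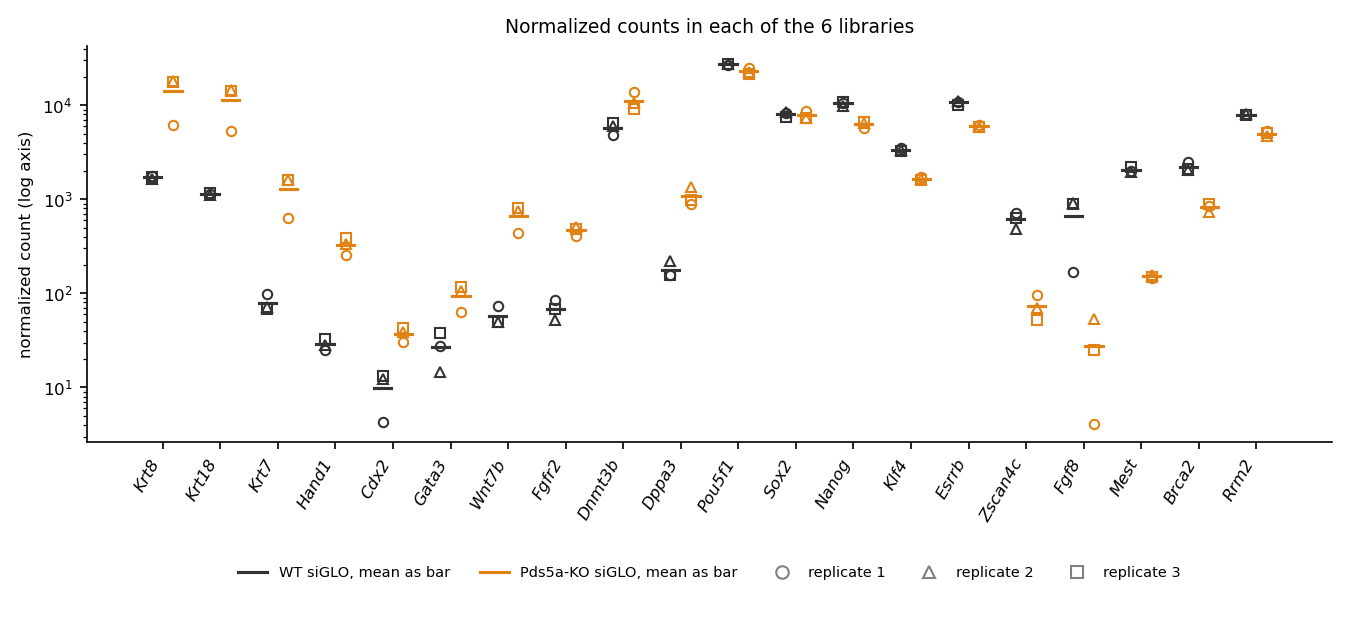
Normalized counts (log axis) of 20 genes described in the text in each WT siGLO (black) and Pds5a-KO siGLO (orange) library, with symbols for the replicate and a bar at the mean of 3. *Krt7*, *Hand1*, *Wnt7b* and *Fgfr2* are higher in all knockout libraries and *Klf4*, *Esrrb*, *Zscan4c*, *Mest* and *Brca2* lower, while the libraries of *Sox2* overlap.

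Most genes of a list of epithelial adhesion that also holds mesenchymal markers rose. Of 59 tested genes of adherens junctions, tight junctions, desmosomes, their regulators and a few mesenchymal markers, 33 rose and 6 fell, with a median of 0.51. *Esrp1*, a splicing factor of epithelial cells, had 549.9, 551 and 462 normalized counts in WT siGLO and 1136, 1238 and 1334 in Pds5a-KO siGLO libraries (1.25 ± 0.10, adjusted p 6.27e-09). The groups were far apart for *Esrp1*, for *Cdh3*, which encodes P-cadherin (1.11 ± 0.10), and for *Epcam* (0.66 ± 0.06). Among the lower genes, the mesenchymal intermediate filament gene *Vim* fell from 4881, 5999.6 and 6603 to 1951, 2511 and 2591 (-1.31 ± 0.15, adjusted p 3.75e-06). *Zeb2*, a repressor of E-cadherin, fell by 1.41 ± 0.21, and *Vcan*, a matrix proteoglycan, by 1.53 ± 0.16. Every knockout library was below every WT library for these 3 genes. The lower genes also included the desmosome gene *Dsg2*, singled out after its value was seen, which fell by 0.63 ± 0.13 and was not called without replicate 1 of both genotypes. The count of higher genes was 21, 20 and 21 when WT siGLO replicate 3, Pds5a-KO siGLO replicate 2 or Pds5a-KO siGLO replicate 3 was left out.

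In several lists of extracellular matrix and actin cytoskeleton genes more members rose than fell, and most were not called. Of 35 tested collagen genes, 12 rose and 1 fell (median 0.80), and of 73 other matrix, proteoglycan and remodelling genes, 22 rose and 9 fell (median 0.27). Laminins and integrins, the receptors of the matrix among them, had 3 higher (8.57%, against 9.63% over all tested genes) and 1 lower of 35 (median 0.20), with 1 higher without WT siGLO replicate 3 or Pds5a-KO siGLO replicate 3 and 5 without Pds5a-KO siGLO replicate 1. Their lower count was 0 without WT siGLO replicate 1 or 3 or Pds5a-KO siGLO replicate 1 or 2 and 2 without Pds5a-KO siGLO replicate 3. The gelatinase genes *Mmp9* and *Mmp2* rose by 2.38 ± 0.21 and 1.03 ± 0.11, and the metalloproteinase inhibitor gene *Timp3* by 1.21 ± 0.14. *Timp4* went the other way, from 9.45, 36 and 25.6 to 1.02, 0 and 0.964 normalized counts, at which level no fold change is given. Of 36 genes of muscle actins and targets of serum response factor (SRF), 15 rose and 1 fell (median 0.39). The LIM-domain gene *Fhl2* went from 17.2, 16.9 and 23.2 to 113, 173 and 194 (3.05 ± 0.31, adjusted p 1.84e-07), and the smooth muscle gene *Cnn1* rose by 2.14 ± 0.21. *Actg1*, cytoplasmic gamma-actin, was the most abundant DEG among the higher genes, with 18844, 20835 and 22258 in WT siGLO and 32827, 34201 and 30739 in Pds5a-KO siGLO libraries, which did not overlap (0.66 ± 0.07). A list of targets of the Hippo pathway factors YAP and TEAD also holds genes of these factors and of the pathway. It had 10 higher and 1 lower gene of 28 tested (median 0.46). The best known target, *Ctgf*, went from 562, 471 and 459.8 to 1761, 1809 and 1677 (1.81 ± 0.10, adjusted p 4.77e-12). The 1 lower collagen was lost without any 1 of WT siGLO replicate 1 and the Pds5a-KO siGLO replicates, and the 1 lower YAP gene without WT siGLO replicate 2 or 3 or Pds5a-KO siGLO replicate 1. That of the matrix list was 4 or 5 without WT siGLO replicate 2 or 3 or Pds5a-KO siGLO replicate 1 or 2.

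The naive pluripotent state, that of the early epiblast, is held by a set of transcription factors. The list of naive factors used here also holds other genes, among them the lysosomal gene *Manba*, which was lower. Of its 18 tested genes, 11 were lower and 2 higher, with a median of -0.78. *Klf4* had 3472, 3358 and 3269 normalized counts in WT siGLO and 1708, 1626 and 1622 in Pds5a-KO siGLO libraries, with little spread in either group (-1.03 ± 0.08, adjusted p 1.13e-09). The nuclear receptor gene *Esrrb* went from 10816, 11120.5 and 10154 to 6206, 5881 and 5824 (-0.84 ± 0.08, adjusted p 2.73e-08). *Tbx3*, *Tfcp2l1* and *Prdm14* fell by 1.42 ± 0.16, 1.03 ± 0.18 and 0.92 ± 0.16, and their libraries did not overlap between genotypes. *Nanog* was lower in every fit, with log2 fold changes of -0.79 to -0.68. *Klf2*, *Klf5* and *Nr0b1* did not pass in the main fit, at -0.18 ± 0.15, -0.40 ± 0.14 and -0.29 ± 0.14. *Klf5* and *Nr0b1* passed in at least 1 alternative fit, with lowest adjusted p of 0.00108 and 0.00948. *Dppa3*, a gene of the germline and the early embryo, went the other way, from 156, 219.7 and 156 to 888, 1343 and 986 (2.61 ± 0.24, adjusted p 4.35e-07). The other riser was *Mybl2* (0.38 ± 0.09), and 1 riser was left without WT siGLO replicate 2 or 3.

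General pluripotency factors, which the naive and the later epiblast share, moved less. Of 18 tested, 1 rose and 2 fell, with a median of -0.05. *Pou5f1* and *Sox2*, the core of this group, had log2 fold changes of -0.25 ± 0.08 (adjusted p 0.0222) and -0.05 ± 0.07 (adjusted p 0.677). *Pou5f1* passed the threshold in at least 1 alternative fit (lowest adjusted p 0.00767). The paper, with DESeq2, reported significant decreases of *Pou5f1* and *Nanog* in its *Pds5a* knockout mESCs. *Dnmt3l*, a cofactor of de novo DNA methylation, rose from 7212, 4811 and 4755 to 16889.7, 12069 and 9895 (1.21 ± 0.23, adjusted p 0.00111). *Tdgf1*, the Nodal coreceptor, fell from 42792, 39979.5 and 36496 to 32788, 29337 and 27710.4, ranges that lie apart (-0.41 ± 0.09). The lower count was 0 without WT siGLO replicate 1 or Pds5a-KO siGLO replicate 3 and 1 without WT siGLO replicate 3 or Pds5a-KO siGLO replicate 2. Among 20 formative and primed genes, which mark epiblast before gastrulation, 5 rose and 2 fell (median 0.02). *Cldn6* and *Grhl2* rose by 1.62 ± 0.20 and 1.00 ± 0.13, while *Fgf5*, the classical marker of this stage, fell from 127, 264 and 316 to 37.6, 26.2 and 17.3 (-3.12 ± 0.43, adjusted p 2.91e-05). Their lower count was 5 without Pds5a-KO siGLO replicate 1 and 1 without WT siGLO replicate 2 or 3 or Pds5a-KO siGLO replicate 2 or 3.

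Genes of the two-cell-like state, which a small share of mESCs enters and which resembles the totipotent embryo, were mostly lower. Of 23 tested, 19 fell and none rose, with a median of -2.82, the lowest among the lists. Over all alternative fits, between 9 and 19 genes of the list were lower and none was higher, with medians of -2.96 to -2.67. The list summed to 2651, 3434 and 3999 normalized counts as lowest, median and highest in WT siGLO and to 380.7, 463 and 562.7 in Pds5a-KO siGLO libraries. *Zscan4c*, a marker of the state (mm10 chromosome 7, 11005745 to 11010547), had 718, 486 and 635 in WT siGLO and 96.5, 70.1 and 52 in Pds5a-KO siGLO libraries (-3.08 ± 0.33, adjusted p 4.2e-06). *Tcstv3* and *Tmem92* had log2 fold changes of -3.53 ± 0.46 and -3.29 ± 0.40, both past the threshold, with no knockout library near a WT library. The *Zscan4*, *Tcstv* and *Usp17l* genes are near-identical copies side by side on their chromosomes, so how reads were split among copies is uncertain and the calls within a family are not independent. The longest run of neighbouring lower genes, 8 genes on chromosome 12 from *Gm8300* to *Gm5039* (mm10, 87514316 to 88324026), had a median of -2.63, and runs of 6 lower genes covered the *Tcstv* genes of chromosome 13 and the *Zscan4* genes of chromosome 7.

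Lists of germ layer genes had DEGs in both directions, where 9.63% of all tested genes were higher and 8.12% lower. Of 25 primitive streak and mesoderm genes 5 rose and 3 fell (median -0.44), of 22 neuroectoderm genes 3 rose (13.6%) and 2 fell (9.09%, median 0.25), and of 23 endoderm genes 3 rose and 1 fell (4.35%, median 0.41). *Fgf8*, a signal of the primitive streak, showed the widest spread, with 168, 921 and 882 in WT siGLO and 4.06, 53.3 and 25.1 in Pds5a-KO siGLO libraries. Replicate 1 was lowest in both groups, which did not overlap (-4.55 ± 0.81, adjusted p 0.000728). The neural progenitor genes *Sox1* and *Nes* fell by 1.28 ± 0.23 and 0.96 ± 0.19, and the Notch ligand gene *Dll1* rose by 1.56 ± 0.20. The higher count of the streak list was 2 or 3 without any 1 of 5 libraries (each but Pds5a-KO siGLO replicate 1), and its lower count was 5 without WT siGLO replicate 1. The neuroectoderm list had 1 higher gene without WT siGLO replicate 2 or 3, and the 1 lower endoderm gene was lost without any 1 of the 6 libraries. *Hox* genes, which pattern the body axis, had 2 higher (9.09%) and none lower of 22 tested, with a median of 0.75, and summed to only 246.6 to 294 normalized counts in WT siGLO and 354.5 to 408.7 in Pds5a-KO siGLO libraries. Without WT siGLO replicate 1 they had 1 higher and 1 lower gene.

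Signalling genes changed in both directions. The ligand genes *Wnt7b* and *Wnt7a* rose by 3.53 ± 0.34 and 3.49 ± 0.57. *Wnt7b* had 73, 49.6 and 49.6 normalized counts in WT siGLO and 437, 749 and 815 in Pds5a-KO siGLO libraries, with replicate 1 lowest in the knockout but above all WT libraries. *Sfrp1*, a secreted Wnt inhibitor, and *Fzd5*, a Wnt receptor gene, fell by 1.10 ± 0.10 and 0.81 ± 0.12, and the Wnt list as a whole had 9 higher and 7 lower genes of 54. In the FGF and ERK list, 7 rose and 7 fell of 43 (16.3% each, against 9.63% and 8.12% over all tested genes). The receptor gene *Fgfr2* went from 85.1, 51.8 and 68.6 to 410.4, 513 and 480.0 (2.75 ± 0.19, adjusted p 7.88e-10). The ligand genes *Fgf5*, *Fgf8* and *Fgf17* fell, the last by 0.58 ± 0.13. Of 65 growth factor receptors and ligands of receptor kinases, 16 rose and 6 fell (median 0.40). The epidermal growth factor receptor ligand *Tgfa* and the hepatocyte growth factor receptor *Met* rose by 2.19 ± 0.28 and 1.17 ± 0.16, and the stem cell factor receptor *Kit* fell from 1574, 1877 and 1694 to 676, 727 and 1081 (-1.05 ± 0.19). The Nodal and activin list had 1 higher gene, *Skil* (0.74 ± 0.07), an inhibitor of SMAD proteins, and 6 lower ones of 23. Among these, the activin subunit gene *Inhbb* fell from 1468, 822 and 904 to 309.8, 318 and 334 (-1.73 ± 0.23). In the BMP list 3 rose and 2 fell of 29, shares near those over all tested genes, led by the ligand gene *Bmp8b* (3.02 ± 0.29) and by *Id2* (1.70 ± 0.26), an inhibitor of differentiation factors. Of 47 Notch, Hedgehog and retinoic acid genes, 10 rose and 3 fell, among them *Dll3* (1.62 ± 0.17) and the retinal reductase gene *Dhrs3*, which fell by 2.00 ± 0.29. Several of these counts changed when 1 library was left out. The Wnt list had 4 higher genes without WT siGLO replicate 1 and 5 without WT siGLO replicate 3 or Pds5a-KO siGLO replicate 2 or 3. The FGF list had 4 lower genes without WT siGLO replicate 3 and 3 without Pds5a-KO siGLO replicate 2 or 3. The Notch list had 6 higher genes without WT siGLO replicate 1 or Pds5a-KO siGLO replicate 2. The growth factor list had 2 lower genes without WT siGLO replicate 3 and 3 without Pds5a-KO siGLO replicate 2, and the Nodal list had 2 higher genes without Pds5a-KO siGLO replicate 1. The BMP list had 8 higher genes without Pds5a-KO siGLO replicate 1, and 1 lower gene without any 1 library other than Pds5a-KO siGLO replicate 3.

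Genes for DNA replication and for repair by homologous recombination mostly fell where they changed. Of 68 replication genes, 15 were lower and 1 higher (median -0.16), and of 60 homologous recombination and Fanconi genes, 14 were lower and 1 higher (median -0.20). *Brca2*, a tumour suppressor gene (mm10 chromosome 5, 150522630 to 150570329), had 2492, 2056 and 2100.4 normalized counts in WT siGLO and 858, 728 and 887 in Pds5a-KO siGLO libraries (-1.43 ± 0.14, adjusted p 4.83e-07). The highest knockout library was far below the lowest WT library. The nuclease gene *Ercc4* and the helicase gene *Brip1* fell by 0.71 ± 0.10 and 0.60 ± 0.09, and *Trp53bp1*, whose product directs breaks away from homologous recombination, rose by 0.49 ± 0.07. *Rrm2*, a subunit of ribonucleotide reductase, went from 8019.8, 7994 and 7826 to 5266, 4665 and 5043 (-0.67 ± 0.07, adjusted p 1.78e-07). The helicase subunit gene *Mcm5* and the GINS subunit gene *Gins3* fell by 0.54 ± 0.06 and 0.73 ± 0.12, and both lie on chromosome 8, on which most genes had a negative log2 fold change. Outside chromosomes 8 and Y and a region of chromosome 15, the replication list still had 11 lower and 1 higher genes and the recombination list 13 and 1. These shifts are small, and the counts changed when 1 library was left out. Without WT siGLO replicate 1 or Pds5a-KO siGLO replicate 2 or 3, the lower replication genes were 9, 9 and 8. Without WT siGLO replicate 1 or 3 or Pds5a-KO siGLO replicate 2 or 3, the lower recombination genes were 5, 7, 8 and 9. The only higher replication gene, *Dbf4*, was lost without WT siGLO replicate 2 or 3 or Pds5a-KO siGLO replicate 1 or 2. Mitosis and spindle genes had 2 higher (2.7%) and 6 lower (8.11%) of 74 (median -0.01), with 1 higher without any 1 library. The lower share was near that over all tested genes (8.12%). Among the subunits of cohesin itself, *Rec8*, the meiotic kleisin, was the DEG of 11 tested (0.69 ± 0.17, adjusted p 0.00377). Its call was lost without WT siGLO replicate 2 or 3 or Pds5a-KO siGLO replicate 2 or 3, and 1 lower subunit was called without Pds5a-KO siGLO replicate 1.

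Imprinted genes, which are expressed from 1 parental allele, changed in both directions and often strongly. Of 55 tested, 14 rose and 8 fell (median 0.05). *Mest* (mm10 chromosome 6, 30723547 to 30748465) had 1985, 1951 and 2201 normalized counts in WT siGLO and 147, 158 and 150.4 in Pds5a-KO siGLO libraries. The spread in both groups was small beside the difference, and *Mest* had the smallest adjusted p among the lower imprinted genes (-3.75 ± 0.11, 9.82e-18). *Magel2* fell from 37.8, 124 and 114 to 9.14, 4.68 and 6.75, with WT replicate 1 the lowest of its group (-3.72 ± 0.55, adjusted p 3.45e-05). *Sfmbt2*, a Polycomb gene of the placenta, rose from 551, 538 and 579 to 2309, 2529 and 2736 (2.18 ± 0.11, adjusted p 2.46e-12). *Cdkn1c*, an inhibitor of the cell cycle, and *Nnat* rose by 2.04 ± 0.16 and 2.66 ± 0.21. The lower count was 4 without WT siGLO replicate 3 or Pds5a-KO siGLO replicate 1 and 5 without Pds5a-KO siGLO replicate 2 or 3. Among 23 genes of DNA methylation and demethylation, 6 rose and 2 fell. The de novo methyltransferase gene *Dnmt3b* went from 4879, 5949 and 6546 to 13708, 10574 and 9057 (0.94 ± 0.15), with replicate 1 lowest in WT and highest in the knockout, and *Tet2*, whose product oxidizes 5-methylcytosine, fell by 0.80 ± 0.17. *Tet2* was not called without WT siGLO replicate 1. The lower count here was 1 without WT siGLO replicate 1 or 2 or Pds5a-KO siGLO replicate 1. Many zinc finger genes named *Zfp* encode repressors of transposons. Of 337 tested, 40 were lower (11.9%, against 8.12% over all tested genes) and 6 higher (1.78%, against 9.63%), with a median of -0.15. Without WT siGLO replicate 1 or 3 or Pds5a-KO siGLO replicate 2 or 3, their lower count was 19, 22, 15 and 22. Their higher count was 2 or 3 without WT siGLO replicate 1 or 2 or Pds5a-KO siGLO replicate 2 or 3.

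Genes of oxidative stress defence were more often higher than lower. Of 46 targets of NRF2, glutathione genes and metallothioneins, 16 rose and 5 fell (median 0.19). The glutathione peroxidase gene *Gpx3* and the glutathione transferase gene *Gstt1* rose by 1.12 ± 0.11 and 1.57 ± 0.18, while *Gsta3* fell from 51.6, 63.1 and 52.1 to 6.09, 8.42 and 15.4 (-2.45 ± 0.37). The lower count of this list was 3 without WT siGLO replicate 1 or 3 or Pds5a-KO siGLO replicate 3. Of 40 interferon and antiviral genes, 3 rose (7.5%) and 5 fell (12.5%), close to the shares over all tested genes (9.63% and 8.12%), with a median of -0.08. *Herc6*, an interferon-induced ligase, went from 179.6, 283 and 249 to 9.14, 24.3 and 16.4 (-3.81 ± 0.34, adjusted p 2.88e-08), and *Xaf1* fell by 2.28 ± 0.28, whereas *Ifitm1*, a membrane protein gene that mESCs also express, rose by 1.29 ± 0.18. Their lower count was 3 in every fit that left out 1 library other than WT siGLO replicate 1. Large groups of basic functions held few DEGs. Of 82 cytosolic ribosomal protein genes 1 was a DEG (*Rpl22*, -0.68 ± 0.11), and of 90 nuclear genes of oxidative phosphorylation 2 were lower (*Atp5b* and *Cox4i2*) and none higher, or 1 higher without WT siGLO replicate 1.

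Some genes were nearly switched off. *Klhl4* on the X chromosome had 387, 475 and 399 normalized counts in WT siGLO libraries and 0 in each Pds5a-KO siGLO library, at least 138-fold lower against a floor of 3 counts per library. Its mean was also 0.332 in Pds5b-KO siGLO mESCs. *Gpr37*, a receptor gene, had 61.9, 110.4 and 97.6 and 0, 0 and 1.93. No gene went from at most 3 counts to at least 50 normalized counts in all libraries. The largest increases included *Galnt14*, a glycosyltransferase (2.58, 3.38 and 2.48 against 27.4, 60.8 and 84.8) and *Car4*, a carbonic anhydrase (3.46 ± 0.31).

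Some changes followed chromosomes rather than functions. On chromosome 8, 174 of 778 tested genes were lower (22.4%) and 41 higher (5.27%), and 71.9% had a log2 fold change below 0. The median was -0.19, against -0.03 to 0.07 on the other 19 chromosomes with at least 100 tested genes. Against the WT siGLO mean, the chromosome 8 median was -0.21 to -0.17 in the 3 Pds5a-KO siGLO libraries. A region of chromosome 15 from *Txn2* to *Ddx17* (mm10, 77915047 to 79546741) had a sharper shift. It was chosen after the values were seen, so its counts are a description. Of its 40 tested genes, 29 fell, none rose and 37 were below 0, with a median of -0.84 and an interquartile range of -1.04 to -0.65. The 20 tested genes before it had a median of -0.05 and the 20 after it 0.10. The region median was -0.90 to -0.80 in each Pds5a-KO siGLO library, -0.91 to -0.70 in all libraries of the same clone with another siRNA, and -0.04 to 0.08 in the WT siGLO libraries. It holds the linker histone gene *H1f0* (-1.98 ± 0.14), the translation factor genes *Eif3d* and *Eif3l* (-0.77 ± 0.06 and -0.91 ± 0.08) and the kinase gene *Csnk1e* (-1.23 ± 0.09). On chromosome 10, *Ptges3*, *Atp5b* and *Baz2a* formed a run of 3 lower neighbours (128058954 to 128129303) with a median of -0.91. *Atp5b*, a subunit of ATP synthase, had 36257, 37879.7 and 37609 normalized counts in WT siGLO and 19504, 19674 and 19067 in Pds5a-KO siGLO libraries. Among 6 tested genes of the Y chromosome, singled out after their values were seen, *Eif2s3y* rose by 2.71 ± 0.14, *Uba1y* rose by 4.76 ± 0.33, *Zfy1* had 1, 0 and 0 raw counts in WT siGLO against 23, 24 and 14, and *Kdm5d* had 23, 41 and 51 against 5, 0 and 4. No DNA data were analysed here, and the number of copies of these regions was not tested. Leaving out chromosomes 8 and Y and the chromosome 15 region left 2408 DEGs, 1397 higher and 1011 lower, of 14139 tested genes.

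**Figure D3:**
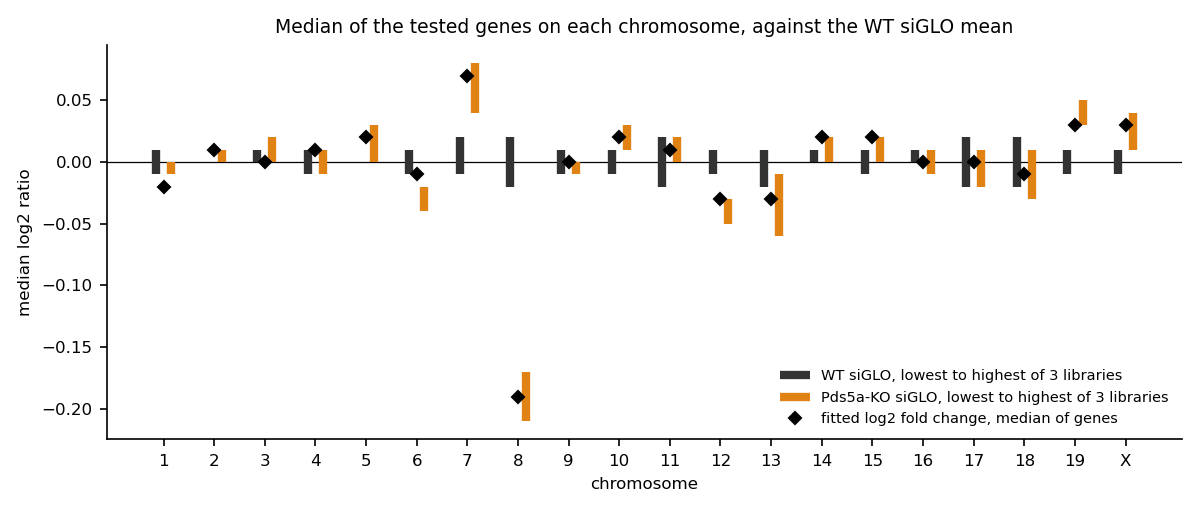
Median log2 ratio of the tested genes of each chromosome other than Y. Vertical bars span the 3 libraries of WT siGLO (black) and Pds5a-KO siGLO (orange) against the WT siGLO mean, and diamonds give the median fitted log2 fold change. Chromosome 8 lies at -0.19, and the other 19 chromosomes with at least 100 tested genes, the ones drawn, lie between -0.03 and 0.07.

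**Figure D4:**
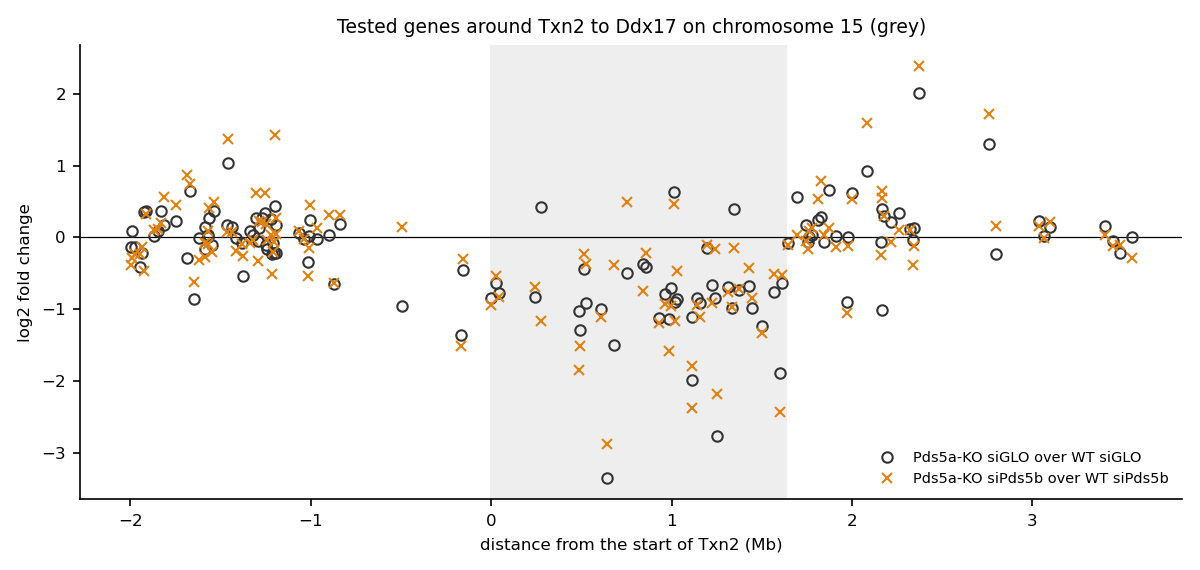
Log2 fold change of tested genes against their distance in Mb from the start of *Txn2* on chromosome 15, for Pds5a-KO siGLO over WT siGLO (circles) and Pds5a-KO siPds5b over WT siPds5b (crosses). Most genes in the grey region, which is 1632 kb long, lie below 0, with a median of -0.84 (circles) and -0.88 (crosses).

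The same knockout clone was compared with WT a further time after knockdown of *Pds5b*, in libraries that share none with the comparison above. There, 4586 genes were DEGs (30.6%), with 2445 higher (16.3%) and 2141 lower (14.3%). Of the 1441 genes higher with siGLO, 1145 (79.5%) were also higher DEGs with siPds5b, and 2 were lower DEGs. Of the 1215 lower genes, 829 (68.2%) were also lower DEGs and 8 were higher. From the other side, 43.0% of the DEGs with siPds5b were DEGs in the same direction with siGLO. The difference between both comparisons, tested as an interaction term, passed the threshold for 222 genes (1.48%). Trophoblast genes had 17 higher and 2 lower of 23 in the siPds5b comparison, with a median of 1.89, and the chromosome 15 region had a median of -0.88. Naive pluripotency factors had 15 lower and 1 higher of 18, with a median of -1.74, and for 9 of them the interaction passed. *Klf4*, for example, had a log2 fold change of -2.23 with siPds5b and -1.03 with siGLO. Two-cell-like genes had 2 lower and 4 higher of 23 and a median of -0.07, and the interaction passed for 11 of them. *Zscan4c* had a log2 fold change of -0.40 (adjusted p 0.267) with siPds5b. *Hox* genes had 13 higher and none lower of 22 (median 2.00), and no interaction was called among them.

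**Figure D5:**
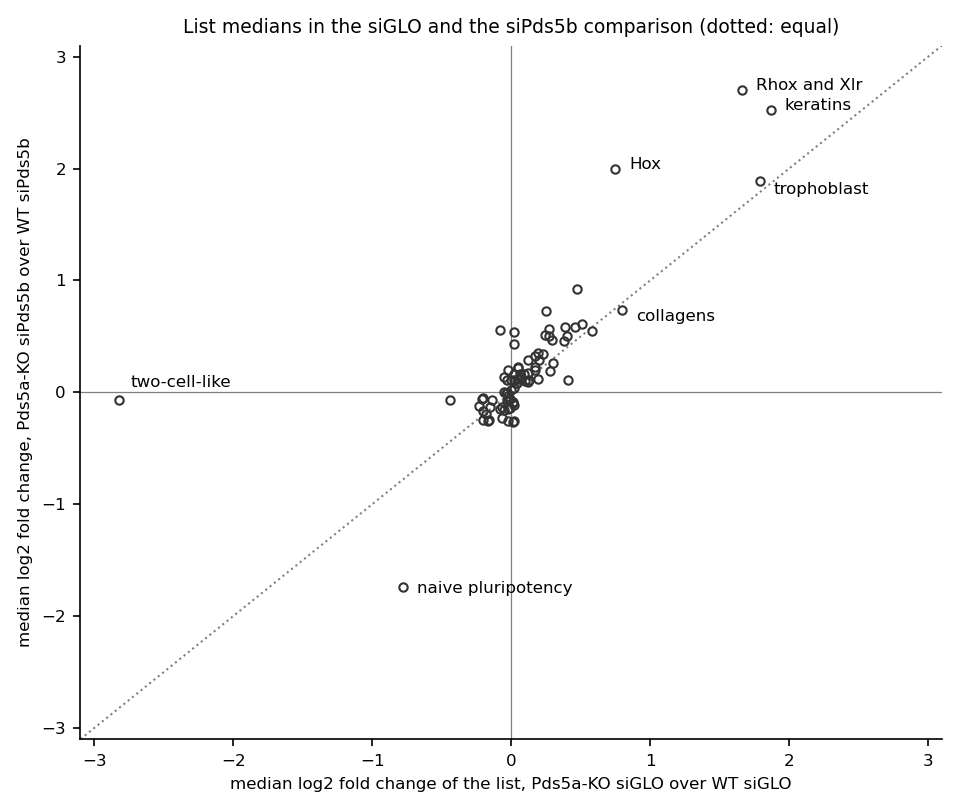
Median log2 fold change of each gene list with at least 8 tested genes in the siGLO comparison (x axis) and the siPds5b comparison (y axis), with equality as a dotted line. Trophoblast genes lie near the line at 1.79 and 1.89, naive pluripotency genes at -0.78 and -1.74, and two-cell-like genes at -2.82 and -0.07.

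A direct test of the same Pds5a-KO siGLO libraries against Pds5b-KO siGLO mESCs, which are another single clone, gave 2873 DEGs (19.2%), with 1457 higher (9.74%) and 1416 lower (9.46%) in Pds5a-KO siGLO mESCs. The higher count was 766 without Pds5a-KO siGLO replicate 2 and 797 and 838 without Pds5b-KO siGLO replicate 1 or 2. Lower DEGs outnumbered higher ones under DESeq2 (1798 and 1620), RLE normalization (1526 and 1313) and library size scaling (1429 and 1369). They also did so in every fit that left out 1 library, but not with the replicate block (1715 lower and 1837 higher). The clones also differed by chromosome. Against the WT siGLO mean, chromosome 8 had a median of 0.29 to 0.30 in the Pds5b-KO siGLO libraries, and the 6 tested genes of Y one of -3.05 to -2.75, against 1.15 to 1.44 in the Pds5a-KO siGLO libraries. *Hand1* averaged 39 normalized counts in Pds5b-KO siGLO mESCs and was higher in Pds5a-KO siGLO by 3.07 ± 0.23 (adjusted p 7e-10). *Krt7* averaged 231 and differed by 2.47 ± 0.44, and *Zscan4c* averaged 298 and differed by -2.03 ± 0.34 (adjusted p 0.000707 and 0.000291). *Mest* averaged 3998 in Pds5b-KO siGLO mESCs, above its WT siGLO libraries, and *Brca2* 1902, and both were lower in Pds5a-KO siGLO mESCs, with log2 fold changes of -4.72 ± 0.11 and -1.21 ± 0.14. *Klf4* and *Esrrb* did not pass this test, with -0.15 ± 0.08 and -0.14 ± 0.08 (adjusted p 0.145 and 0.17).

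Long genes were called somewhat more often than short ones. Among tested genes in 5 equal groups by genomic span, the share of higher DEGs was 7.61%, 9.02%, 9.32%, 10.3% and 12.1% from shortest to longest, and the share of lower DEGs 8.08%, 7.07%, 7.51%, 8.11% and 9.96%. The shortest group ended at 7.55 kb and the longest began at 69.4 kb. By expression, the second lowest of 5 groups had the highest share of higher DEGs, 14.9%, and the lowest group the smallest, 6.65%, where counts also limit what can be called.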

How the data were processed

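Poly-A RNA of 7 conditions with 3 libraries each was aligned by the authors to mm10 with STAR, and the deposited files hold raw read counts per gene symbol for 23412 symbols. How reads were counted, on which annotation and with which strand setting is not given in the sources used here, so reads of overlapping genes may be shared. The 14963 genes kept by edgeR's filter were tested with edgeR 4.0.16 in R 4.3.3 (TMM, quasi-likelihood F test, robust dispersion, 1 fit of 21 libraries, Benjamini-Hochberg adjustment, threshold 0.01), where the authors used DESeq2. The standard error is the size of the log2 fold change divided by the square root of F. Positions are those of GENCODE M21 on mm10, and guide sequences are from the study's oligo table.

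Named genes are the 12 largest changes per direction, the 3 DEGs of smallest adjusted p per list and direction, all pluripotency factors and cohesin subunits, genes switched off, the 5 most abundant DEGs per direction and the longest runs of neighbours. Not all are named, some are not reported here, and others are said to be chosen after their values were seen. The comparison, the lists and the rule were chosen with earlier results of these data known. On simulated data the test recovered known changes. Alternatives were DESeq2 1.42.0, other scalings, filters, thresholds and sets of libraries, the replicate number as a block, and each library left out in turn. Same-numbered libraries of both genotypes deviated together with correlations of 0.317, 0.235 and 0.058, the last under the minimum of 0.1 used for pairing. They were therefore not treated as pairs in the main fit. The labels do not say whether equal numbers mark a shared batch, and this was not tested.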

Additional observations from a re-analysis of the deposited data

Results flagged for a closer look

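For 14 genes named in the report, the effect of PDS5A loss differed between siGLO and siPds5b mESCs, by an interaction term in edgeR with an adjusted p under 0.01. Values are the log2 fold change with siGLO minus that with siPds5b. The naive pluripotency factors *Klf4* (1.21, adjusted p 3.99e-07), *Esrrb* (1.26), *Prdm14* (1.91) and *Nr0b1* (1.80) had the larger decrease with siPds5b, and the log2 fold changes of *Sox2* (0.75) and *Mybl2* (0.57) were also lower with siPds5b. The ligand genes *Fgf17* (1.70) and *Inhbb* (2.38), the keratin gene *Krt42* (1.24) and *Rrm2* (0.46) likewise had the larger decrease with siPds5b. The two-cell-like gene *Zscan4c* (-2.67, adjusted p 0.00213) and the genes *Gm5039* (-2.52) and *Gm8300* (-2.33) of the chromosome 12 run had their larger decrease with siGLO. *Ctgf* (-1.04) was higher than WT in both comparisons, and by more with siPds5b.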

How the results depend on the processing

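The counts of DEGs were within 1.5 times those reported under DESeq2 (3061), RLE normalization, library size scaling, both other filters and a fit of only the 6 libraries (1790). At an adjusted p under 0.1 there were 5257 DEGs (2748 higher, 2509 lower), and 958 (600 and 358) when a log2 change of 1 or more was also required. Leaving out each library gave 1763 to 2584 DEGs, 936 to 1502 higher and 784 to 1082 lower, with the fewest in all without Pds5a-KO siGLO replicate 2 and the fewest higher without WT siGLO replicate 3. For Pds5a-KO siGLO against Pds5b-KO siGLO the same gave 1722 to 2683 DEGs and 766 to 1251 higher, where leaving out Pds5a-KO siGLO replicate 2 or Pds5b-KO siGLO replicate 1 or 2 gave 1722, 1837 and 1904 DEGs and 766, 797 and 838 higher. The replicate block gave 3175 DEGs, 1734 higher and 1441 lower, and 2636 with only the 6 libraries, where the log2 fold change of *Pds5a* was -0.254 and passed. Replicate 3 of Pds5a-KO siGLO correlated better with replicate 2 of WT siGLO (0.164) than with its own number. Leaving out each library gave *Pds5a* a log2 fold change of -0.342 to -0.168, past the threshold without Pds5a-KO siGLO replicate 1. Of 388 DEGs that the rule or the text names, 268 were called in every alternative and 0 of them changed direction in any, and the cause of lost calls was not tested. With only the 6 libraries, *Krt8*, *Igf2*, *Fgf8*, *Nes*, *Dnmt3l*, *Tet2* and *Dbf4*, of the genes named here, were not called. With the replicate block in that fit, *Krt7*, *Krt8*, *Krt18*, *Igf2*, *Dnmt3b* and *Car4* of these genes were not called, and 2 keratins were higher. Precision is limited by 3 libraries per group and by counts near 0 for rare transcripts.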
